A study of Caenorhabditis elegans with 48 samples.

Results

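The genes described here encode proteins of the cytosolic ribosome of the nematode *Caenorhabditis elegans*, measured by mRNA-seq in starved first-stage (L1) larvae. They are all protein-coding genes whose name in the WBcel235 annotation starts with *rpl-* (47 genes, proteins of the large ribosomal subunit) or *rps-* (31 genes, proteins of the small subunit). Genes named *mrpl-* or *mrps-*, which encode proteins of the mitochondrial ribosome, were left out. All 78 genes were found in the count files by their WBGene identifier, among 19932 protein-coding genes, and all 78 were among the 15549 genes with enough counts to be tested.

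A ribosome is built from rRNA, made largely by RNA polymerase I, and from a fixed set of proteins whose mRNAs are made by RNA polymerase II (Pol II). Each protein is needed in about the same number of copies, so the genes are usually expressed as a block, and their mRNAs are among the most abundant and long-lived of a cell. The TOR pathway, which senses nutrients, promotes the production and translation of these mRNAs, and starvation lowers both. *C. elegans* larvae that hatch without food stop development in L1 arrest and survive there for weeks on their reserves.

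The study used 4 strains, each at 36 h of L1 arrest and at 132 h with 100 µM auxin or with ethanol, its solvent, both added at 36 h. The auxin-inducible degron system destroys a protein that carries the degron tag (AID) in those cells that make the plant protein TIR1. Strain *Peft-3::TIR1; ama-1::AID* carries ieSi57, a transgene on chromosome II that makes TIR1 in the soma from the *eft-3* promoter, and *ama-1(syb1513)* on chromosome IV, which puts the tag on AMA-1, the largest subunit of Pol II. Strain *Pgld-1::TIR1; ama-1::AID* carries the same tagged *ama-1* with ieSi64, a transgene on chromosome II that makes TIR1 in the germ line from the *gld-1* promoter. Their controls, *Peft-3::TIR1* and *Pgld-1::TIR1*, carry ieSi57 or ieSi64 with untagged *ama-1*. All 4 strains thus make TIR1, and both transgenes also express mRuby and carry *Cbr-unc-119(+)*. In what follows the first 2 strains are called the somatic and the germline AID strain, and the others the somatic and the germline TIR1 control.

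Each of the 12 groups had 4 biological replicates of whole larvae, 48 libraries in all. The germ line of an arrested L1 larva is limited to its primordial germ cells, so mRNA of the germline AID strain comes almost entirely from cells that keep AMA-1. The somatic AID strain grows more slowly than the others and was set up from gravid adults, the others from L4 larvae. Each strain is a single line, so a difference between strains cannot be told apart from other differences between these lines. Libraries held 5755041 to 18052333 counts in genes, and the 78 genes together held 767947 to 2316314 counts per library. Reads carried no molecular identifiers. The SE given with a fitted change rests on the spread between replicates as well as on counting error. rRNA took 1.90% to 27.6% of gene counts, and spike-in RNA, added in proportion to total RNA, took 1.13% to 8.33% of gene and spike-in counts. Transcripts of *ama-1* were not lowered by auxin in the somatic AID strain, where they were 0.96 ± 0.26 higher on the log2 scale (SE; adjusted p = 0.00402 by edgeR's quasi-likelihood test). The degron acts on the protein, so this transcript does not check the depletion.

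Most of the 78 genes were expressed at high and similar levels. Levels are given as TPM, a measure of transcript abundance in which counts are divided by exon length and scaled to the same total in each library over protein-coding genes, and the median gene averaged 3817 TPM over the 48 libraries. The highest averages belonged to *rpl-43* (9779 TPM), *rpl-4* (8575 TPM), *rpl-36* (7864 TPM), *rps-5* (7559 TPM) and *rpl-10* (7016 TPM). *rps-5* encodes a small subunit protein and the other 4 genes large subunit proteins. The genes are short, with a median exon length of 532 bases and a range of 236 to 1456 bases. They are spread over the genome, with 23 on chromosome I, 10 on II, 18 on III, 17 on IV, 8 on V and 2 on X.

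Only 4 genes averaged under 10% of the median. *rpl-11.1* averaged 338 TPM. *rpl-41.1* averaged 44.3 TPM, and its neighbour *rpl-41.2*, on chromosome I as well, 1.40 TPM. *rpl-42* averaged 0.957 TPM, equal to 5.02 counts per library. *rpl-41.2* averaged 3.02 counts. These values are too low for a fold change of *rpl-41.2* or *rpl-42* to be read.

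The share of protein-coding counts held by the 78 genes gives their joint level in each library. In the somatic AID strain it was 8.45%, 9.09%, 10.2% and 8.96% with auxin, against 16.2%, 12.9%, 17.3% and 12.8% with ethanol at the same age. The 4 auxin libraries all lay below the 4 ethanol libraries. At 36 h, before either was added, the same strain had 13.7% to 15.9%. In the germline AID strain the share was 14.2 ± 1.46% with auxin and 15.7 ± 1.89% with ethanol, in the somatic TIR1 control 12.5 ± 0.995% and 12.95 ± 0.785%, and in the germline TIR1 control 14.0 ± 1.38% and 13.8 ± 1.24% (mean ± SD, n = 4 each). In these 3 strains auxin and ethanol libraries overlapped. In whole larvae, fewer cells of a type and less RNA per cell cannot be told apart.

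**Figure D1:**
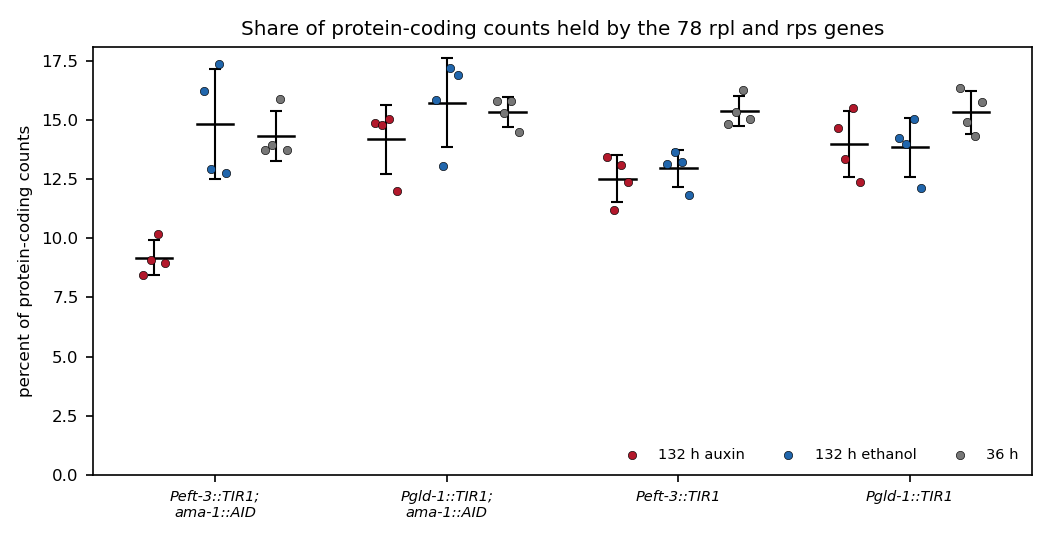
Share of protein-coding counts (percent, y axis) held by the 78 *rpl-* and *rps-* genes in each of the 48 libraries, by strain and condition. Points are libraries and bars give the mean ± SD of 4. The auxin libraries of the somatic AID strain (8.45% to 10.2%) lie below all others.

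The first comparison asks how degrading AMA-1 in the soma changes ribosomal protein mRNA during arrest. With auxin, 64 of the 78 genes (82.1%) were lower than with ethanol in the somatic AID strain and 2 were higher, while 12 did not pass the test. Over all genes tested, 16.1% were lower and 13.3% higher. The median of the 78 genes was -0.79 on the log2 scale, a 1.73-fold decrease, against 0.11 for all genes. Both subunits took part, with 36 of 47 *rpl-* genes lower (median -0.78) and 28 of 31 *rps-* genes lower (median -0.86). The quartiles were -0.95 and -0.57, and 71 of the 78 genes were below 0. Counts were tested with edgeR's quasi-likelihood test on relative expression, with Benjamini-Hochberg adjustment over all genes tested and a threshold of 0.05 that holds for every count of genes given here.

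The deepest decreases were in the large subunit genes *rpl-5*, *rpl-4* and *rpl-21*. This is no pattern of the subunit, since the median was -0.86 for the *rps-* genes and -0.78 for the *rpl-* genes. *rpl-5*, whose protein carries the 5S rRNA into the ribosome, had 3536, 3525, 3922 and 3608 TPM with auxin, against 6636, 5433, 7550 and 5929 TPM with ethanol. The auxin libraries did not overlap the ethanol libraries, and the fitted change was -1.17 ± 0.18 (log2, SE; adjusted p = 1.53e-06 by edgeR). *rpl-4*, which encodes a protein that lines the peptide exit tunnel, had 5016, 5372, 5928 and 5324 TPM with auxin, against 8672, 8056, 10833 and 8552 TPM with ethanol. Its auxin libraries were again all lower, with a change of -1.12 ± 0.16 (adjusted p = 1.95e-07 by edgeR). *rpl-21*, another large subunit gene, had 3090 to 3963 TPM with auxin, against 5039 to 7125 TPM with ethanol, and fell by 1.11 on the log2 scale.

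Genes chosen as reference points behaved like the block. *rps-6*, the substrate of S6 kinase in the TOR pathway, had 3266, 3622, 3934 and 3452 TPM with auxin, against 5850, 5129, 6670 and 5143 TPM with ethanol. The groups did not overlap, and *rps-6* changed by -0.93 ± 0.18 (log2, SE; adjusted p = 5.08e-05 by edgeR). *rps-0*, a small subunit gene, had 2795 to 3500 TPM with auxin, against 5307 to 6693 TPM with ethanol (-1.07 ± 0.17). *rpl-3*, whose protein lies near the peptidyl transferase centre, had 2970 to 3846 TPM with auxin, against 4973 to 6463 TPM with ethanol (-1.02 ± 0.17). In all, 53 of the 78 genes had lower TPM in every auxin library than in any ethanol library, against 12.9% of all genes tested, and 5 had higher TPM in every auxin library, against 20.5% of all genes.

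**Figure D2:**
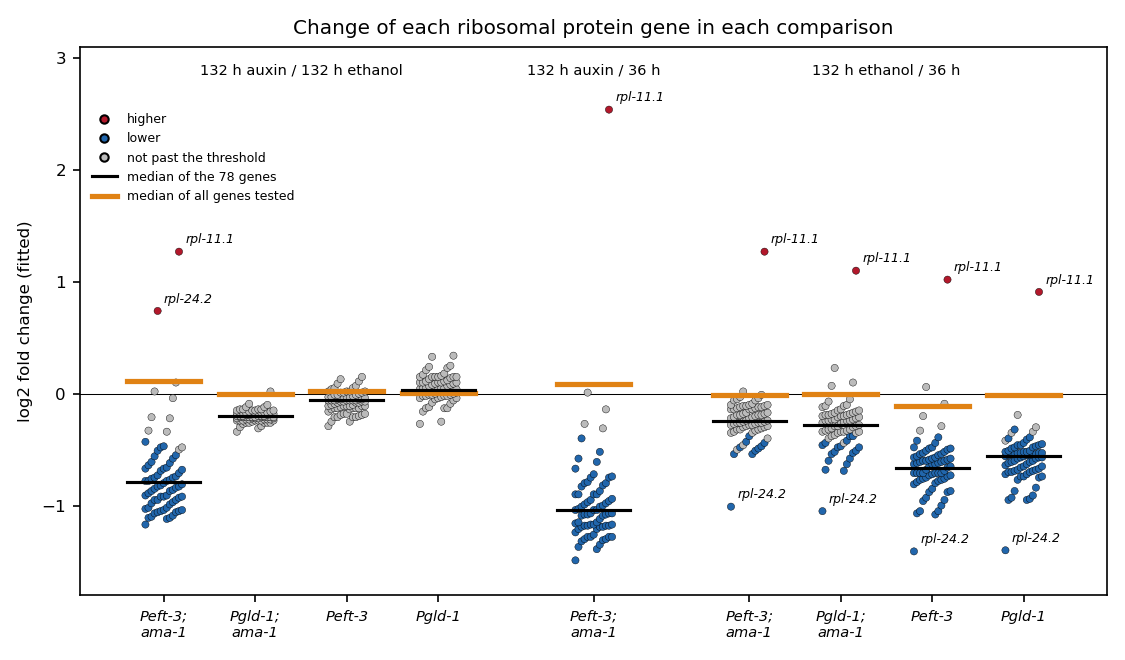
Log2 fold change (fitted, relative expression) of the *rpl-* and *rps-* genes in each comparison, 1 point per gene, filled where the gene passed the test, with the median of the 78 genes and of all genes tested marked. *rpl-41.1*, *rpl-41.2* and *rpl-42* are left out of the points but not of the medians. With auxin in the somatic AID strain the band is centred at -0.79, with *rpl-11.1* (1.27) and *rpl-24.2* (0.74) above it.

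A pair of genes went against the block. *rpl-11.1*, on chromosome V (WBcel235, 3585312 to 3586064, minus strand, WBGene00004422), encodes one of the 2 *C. elegans* copies of the large subunit protein that sits with the 5S rRNA. It had 1069, 1125, 1261 and 669.6 TPM with auxin, against 284.9, 423.2, 349.6 and 330 TPM with ethanol. Every auxin library exceeded every ethanol library, and the fitted change was 1.27 ± 0.21 (log2, SE; adjusted p = 3.9e-06 by edgeR). Its copy *rpl-11.2*, on the X chromosome (2241738 to 2242618, minus strand, WBGene00004423), had 2917, 3459, 3323 and 2620 TPM with auxin, against 5132, 4451, 5435 and 4840 TPM with ethanol. The *rpl-11.2* libraries did not overlap either, but in the opposite direction, with a change of -0.91 ± 0.17 (adjusted p = 2.69e-05 by edgeR). *rpl-11.1* therefore gave 24.8 ± 3.23% of the summed TPM of the pair with auxin and 6.59 ± 1.47% with ethanol (SD, n = 4 each).

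*rpl-24.2*, on chromosome I, also moved in the opposite direction to the gene that shares its number. It had 1790, 1751, 1872 and 1408 TPM with auxin, against 839.5, 718.7, 863.4 and 676.7 TPM with ethanol, a change of 0.74 ± 0.19 (log2, SE; adjusted p = 0.00218 by edgeR). *rpl-24.1*, which lies elsewhere on chromosome I, had 2300, 2089, 2515 and 2093 TPM with auxin, against 3261, 2765, 3476 and 3108 TPM with ethanol, a change of -0.80 ± 0.17 (adjusted p = 2.76e-04 by edgeR). Neither gene overlapped between groups. *rpl-24.2* gave 43.1 ± 2.25% of the pair's TPM with auxin, 19.7 ± 1.27% with ethanol and 32.6 ± 2.01% at 36 h (SD, n = 4 each), so *rpl-24.1* stayed the larger part. The names put these genes together, but in yeast the relative of one of the Rpl24 proteins works in ribosome assembly rather than in the finished ribosome, and which worm gene is its counterpart was not examined. For the pair *rpl-25.1* and *rpl-25.2*, the genes moved together (-0.62, adjusted p = 0.016, and -0.69, adjusted p = 0.00641, by edgeR), and *rpl-25.1* kept 64.9% to 67.8% of the pair's TPM as the mean of each of the 12 groups.

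The increases of *rpl-11.1* and *rpl-24.2* are relative to the other mRNA. With counts scaled to the spike-in, which was added per amount of total RNA, *rpl-11.1* changed by 0.11 (adjusted p = 0.806 by edgeR) and *rpl-24.2* by -0.35 (adjusted p = 0.368 by edgeR), so that neither passed the test, and 73 of the 78 genes were lower and 0 higher. On this scale most genes were lower, 52.4% of all genes against 2.68% higher, and the median of all genes was -1.25 and that of the 78 genes -2.05. Counts of the 78 genes per spike-in count averaged 1.74 ± 0.623 with auxin, 7.23 ± 1.40 with ethanol and 4.88 ± 1.34 at 36 h in this strain (SD, n = 4 each). The split between the copies of a pair is uncertain where reads match both, since the authors' alignment placed such reads at 1 of the copies.

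**Figure D3:**
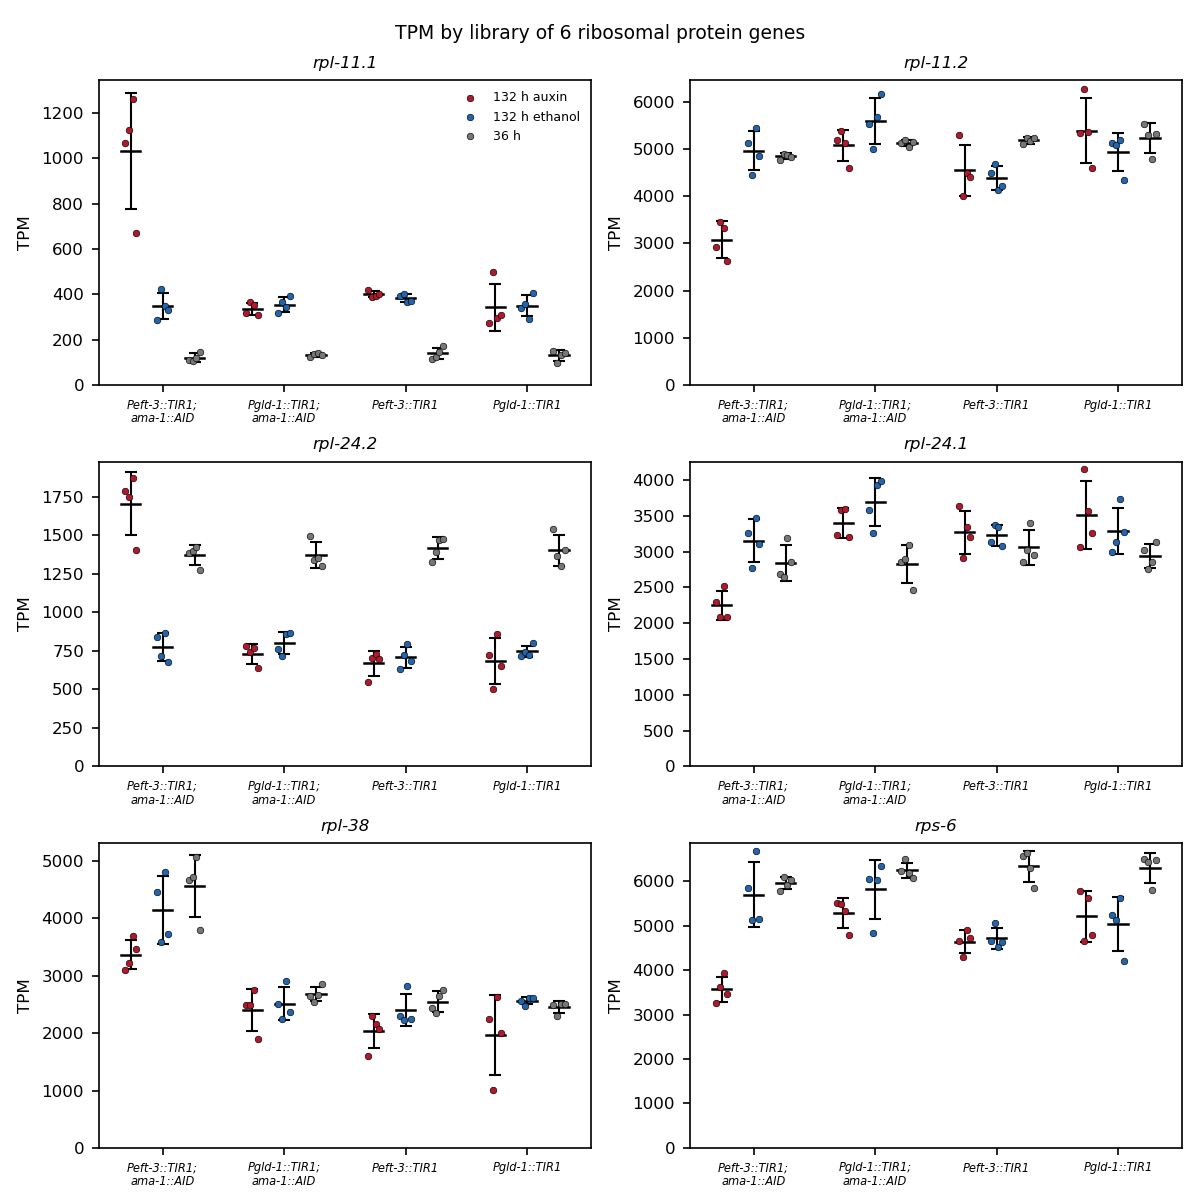
TPM (y axis) of *rpl-11.1*, *rpl-11.2*, *rpl-24.2*, *rpl-24.1*, *rpl-38* and *rps-6* in each library, by strain and condition. Points are libraries, bars the mean ± SD of 4. *rpl-11.1* and *rpl-24.2* have their highest means in the auxin libraries of the somatic AID strain, where *rpl-11.2*, *rpl-24.1* and *rps-6* have their lowest.

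The 12 genes that did not pass the test include abundant ones. *rpl-12*, which encodes a protein at the base of the ribosomal stalk, had 3298, 2874, 3344 and 2747 TPM with auxin, against 2610, 2328, 2617 and 2418 TPM with ethanol. Its fitted change was -0.04 (adjusted p = 0.858 by edgeR), although its TPM was higher in every auxin library than in any ethanol library. *rps-24* had 4987, 4403, 5179 and 3635 TPM with auxin, against 3816, 3341, 4120 and 3287 TPM with ethanol, with overlapping groups and a change of 0.10 (adjusted p = 0.745 by edgeR). *rps-27*, a small subunit gene that is low for the block, had 1024 to 1331 TPM with auxin, against 890 to 919 TPM with ethanol, and a change of 0.02. The others with enough counts were *rpl-43* (-0.50, adjusted p = 0.0797), *rps-29* (-0.48, adjusted p = 0.0681), *rpl-39* (-0.34), *rpl-35* (-0.33), *rpl-29* (-0.22) and *rpl-31* (-0.21), by edgeR. *rpl-41.1* (0.39, adjusted p = 0.448 by edgeR), *rpl-41.2* and *rpl-42* had low counts.

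Within the block the size of the decrease went with exon length, and less closely with other features of the genes. Over the 74 genes above 10% of the median TPM, the log2 fold change had a Spearman correlation of -0.58 with exon length, and over all genes tested one of -0.04. With exon number it was -0.45 and with mean TPM -0.38 over the same 74 genes, and these features were not separated. The points share the same 8 libraries and are not independent, so no test was made. Of the 25 shortest of these genes (236 to 480 bases) 17 were lower, with a median of -0.67, of the next 24 (482 to 664 bases) 23 were lower, with a median of -0.82, and of the 25 longest (665 to 1456 bases) 24 were lower, with a median of -0.97.

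**Figure D4:**
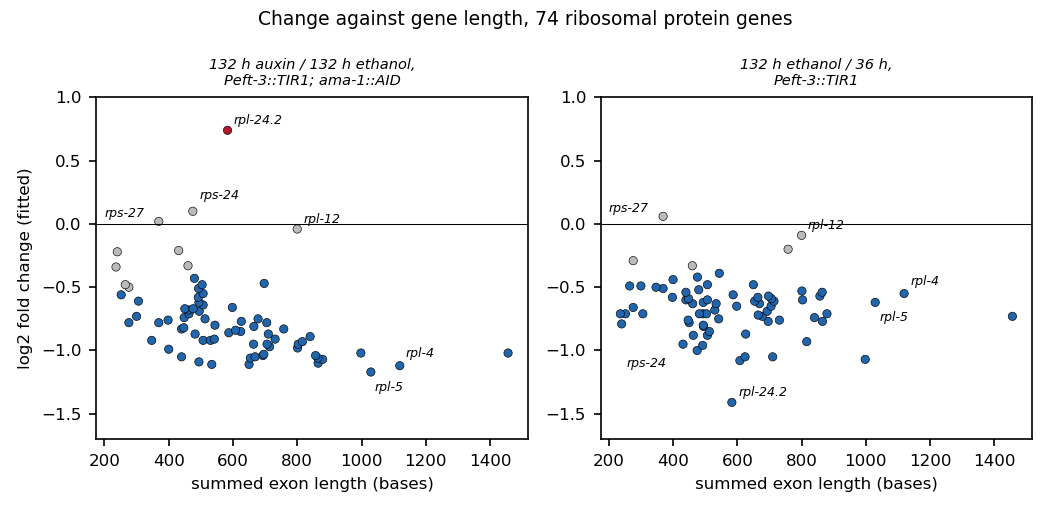
Log2 fold change (y axis) against exon length in bases (x axis) for 74 *rpl-* and *rps-* genes, 1 point per gene, without *rpl-11.1*, *rpl-41.1*, *rpl-41.2* and *rpl-42*. The left panel shows 132 h auxin against 132 h ethanol in the somatic AID strain, where the Spearman correlation is -0.58, and the right panel 132 h ethanol against 36 h in the somatic TIR1 control, where it is -0.12.

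Some cell type markers were lower with auxin in the somatic AID strain, as the block was, and others higher. Of all genes tested, 16.1% were lower and 13.3% higher, and several of the lists rest on 1 or 2 calls. Of 4 muscle markers 4 were lower with auxin (summed TPM 497 to 569, against 764 to 1143 with ethanol), and of 4 intestine markers 2 were lower (81.6 to 179, against 719 to 1204). Of 4 neuron markers 1 was higher (1221 to 1440, against 732 to 1042), of 5 markers of primordial germ cells 3 were higher (105 to 398, against 65.4 to 113), and of 6 markers of oocytes and embryos 2 were higher (85.4 to 853, against 28.7 to 69.6). Of 3 hypodermis markers 1 was lower (71.6 to 85.7, against 69.2 to 96.8), and of 6 yolk proteins of adults 0 were called (2.40 to 13.8, against 0.617 to 1.99). Of 5 sperm markers 1 had enough counts to be tested and was not called, and no marker was at 0 in every library. Their part in the decrease of the ribosomal protein genes was not tested. Transgene ieSi57 of this strain ends in the *unc-54* 3'UTR, and *unc-54* is 1 of the 4 muscle markers, so its counts may include transgene reads. Without the auxin library in which oocyte and embryo markers summed to 853 TPM (replicate 4), 60 of the 78 genes were lower and 2 higher, where 15.8% of all genes were lower and 14% higher.

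The estimated factor of unwanted variation (W1, from the spike-ins) was 0.1004 to 0.342 in these auxin libraries and -0.167 to -0.0210 in the ethanol libraries. These ranges did not overlap, so W1 was confounded with the treatment. In a fit of only these 8 libraries with W1, 1 of the 78 genes was higher and 0 were lower, although their median was -0.99, and calls over all genes were few as well, 2.19% higher and 2% lower. In a fit of the same 8 libraries without W1, 3 of the 78 were higher and 58 lower, where 16.4% of all genes were higher and 14.7% lower.

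In the other 3 strains no ribosomal protein gene passed the test for an effect of auxin. In the germline AID strain 0 of the 78 genes were called (median -0.20, against 0.00 for all genes), in the somatic TIR1 control 0 (-0.06, against 0.02) and in the germline TIR1 control 0 (0.03, against 0.01), and over all genes tested 0% were called in either direction in each strain. At an unadjusted p under 0.05 by edgeR there was 1 gene in the germline AID strain, 1 in the somatic and 0 in the germline TIR1 control, and DESeq2 called 0 in each. In the germline AID strain 75 of the 78 genes were below 0, none of them past the test. The extremes there were *rps-12* (-0.34), *rps-23* (-0.31) and *rps-15* (-0.30) at the low end and *rps-29* (0.02) as the highest of the abundant genes.

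The genes that stood out in the somatic AID strain did not do so elsewhere. *rpl-11.1* changed by -0.16 in the germline AID strain, 0.02 in the somatic TIR1 control and 0.04 in the germline TIR1 control, and *rpl-24.2* by -0.20, -0.13 and -0.02 in the same strains. In the germline TIR1 control, 1 auxin library (replicate 2) stood apart in single genes. It had 1001 TPM of *rpl-38*, against 2007 to 2628 in the other 3 auxin libraries, and 6588 TPM of *rps-12*, against 3726 to 4698.

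The effect of auxin was then compared directly between the somatic AID strain and its TIR1 control, with an interaction term. It differed for 51 genes, with 49 lower and 2 higher in the AID strain (median -0.73, against 0.06 for all genes), while 12.5% of all genes were lower and 8.31% higher. The lowest were *rps-12*, a small subunit gene (-1.25 ± 0.28, log2, SE; adjusted p = 9.98e-04 by edgeR), *rpl-5* (-1.14 ± 0.23, adjusted p = 2.07e-04) and *rps-9* (-1.08 ± 0.23, adjusted p = 4.51e-04). *rps-6* differed by -0.87 (adjusted p = 0.0036 by edgeR). The 2 higher genes were again *rpl-11.1* (1.25 ± 0.26, adjusted p = 3.74e-04 by edgeR) and *rpl-24.2* (0.87 ± 0.24, adjusted p = 0.00688 by edgeR). The call of *rpl-24.2* was lost without replicate 1 (adjusted p = 0.0506) or without replicate 2 (adjusted p = 0.054), and in spike-in scale its difference was -0.08.

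The same comparison between the germline strains called 0 genes (median -0.24, against -0.01 for all genes), where 0% of all genes were called in either direction, with 5 at an unadjusted p under 0.05 by edgeR and 0 called by DESeq2. The lowest was *rps-12* at -0.68.

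The second question is what late arrest itself does to these genes, from 36 h to 132 h with ethanol. In relative expression most of the block was lower in both TIR1 controls, while in both AID strains fewer genes passed the test. In the somatic TIR1 control 70 genes were lower and 1 higher at 132 h (median -0.66, against -0.11 for all genes), where 23.9% of all genes were lower and 20.5% higher. In the germline TIR1 control 69 were lower and 2 higher (median -0.56, against -0.01), where 19.4% of all genes were lower and 18.8% higher. Without ethanol replicate 4 of that strain, whose W1 of 0.311 stood apart from the other 3, 37 were lower and 1 higher. In that fit 14.9% of all genes were lower and 14.9% higher. Leaving out each replicate number in turn gave as few as 25 calls. In the somatic AID strain 10 were lower and 1 higher (median -0.24, against -0.01), where 15.1% were lower and 15.2% higher. In the germline AID strain 18 were lower and 1 higher (median -0.28, against 0.00), where 17.1% were lower and 17% higher. W1 differed between the times as well. In the somatic AID strain it was 0.0132 to 0.212 at 36 h, against -0.167 to -0.0210 at 132 h with ethanol. It was -0.0199 to 0.167, against -0.125 to -0.0685, in the somatic TIR1 control, and 0.0579 to 0.183, against -0.175 to 0.0138, in the germline AID strain. None of these ranges overlapped, so W1 was confounded with time in these strains.

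In TPM the fall was smaller. The median log2 ratio of mean TPM was -0.17 in the somatic and -0.06 in the germline TIR1 control, against 0.39 and 0.53 for all genes. In the somatic TIR1 control 31 of the 78 genes were lower in every ethanol library than in any at 36 h, and 5 higher (14.5% and 31.9% of all genes). In the germline TIR1 control 16 were lower and 3 higher (9.53% and 31%). *rps-2*, a small subunit gene, had one of the deeper falls. In the somatic TIR1 control it had 3397, 4194, 3638 and 3882 TPM at 132 h, against 6067, 6191, 5609 and 5192 TPM at 36 h. The groups did not overlap, and the change was -1.07 (log2; adjusted p = 4.2e-08 by edgeR). *rpl-20*, a large subunit gene, had 3229, 3225, 3192 and 2985 TPM at 132 h, against 4516, 4825, 4876 and 4277 TPM at 36 h in the same strain, again without overlap (-1.08, adjusted p = 8.24e-07 by edgeR). *rps-6* had 4650, 5060, 4510 and 4635 TPM at 132 h, against 6566, 6625, 6291 and 5849 TPM at 36 h (-0.93, adjusted p = 2.44e-06 by edgeR). In the germline TIR1 control *rps-2* (-0.95, adjusted p = 2.5e-07 by edgeR), *rpl-26* (-0.95, adjusted p = 1.92e-06) and *rps-6* (-0.84, adjusted p = 8.36e-06) were among the genes that fell.

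A set of 9 genes was lower in all 4 strains, namely *rps-2*, *rps-15*, *rps-24*, *rpl-1*, *rpl-20*, *rpl-24.2*, *rpl-26*, *rpl-30* and *rpl-31*. They are 11.5% of the 78 genes, and 11.9% of all genes tested were lower in all 4 strains. By contrast 48 genes (61.5%) were lower in exactly 2 strains, against 4.46% of all genes. In 3 strains 10 genes were lower, in 1 strain 5, and in no strain 6, which were *rpl-43*, *rpl-35*, *rps-27*, *rpl-11.1*, *rpl-41.2* and *rpl-42*.

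*rpl-24.2* had the deepest fall of the abundant genes in each of the 4 strains. It changed by -1.01 (adjusted p = 5.5e-06) in the somatic AID strain, -1.05 (adjusted p = 1.79e-06) in the germline AID strain, -1.41 (adjusted p = 1.73e-09) in the somatic TIR1 control and -1.40 (adjusted p = 7.64e-10) in the germline TIR1 control, by edgeR. In the somatic TIR1 control it had 630.7, 724.5, 795.5 and 683.8 TPM at 132 h, against 1329, 1392, 1473 and 1476 TPM at 36 h. Every library at 132 h was lower. *rpl-24.1* changed by -0.39 (adjusted p = 0.034 by edgeR) in the somatic TIR1 control and by -0.10, without passing the test, in the somatic AID strain.

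*rpl-11.1* was the exception in the other direction, higher at 132 h in all 4 strains, as were 10.7% of all genes. Its changes were 1.27 (adjusted p = 4.71e-07) in the somatic AID strain, 1.10 (adjusted p = 3.5e-06) in the germline AID strain, 1.02 (adjusted p = 9.51e-06) in the somatic TIR1 control and 0.91 (adjusted p = 2.86e-05) in the germline TIR1 control, by edgeR. In the somatic TIR1 control it had 393.3, 401.6, 365 and 368.8 TPM at 132 h, against 114.3, 123.3, 146.2 and 171 TPM at 36 h. The groups were far apart. The second gene called higher in the germline TIR1 control was *rpl-41.2*, with counts of 12, 0, 0 and 3 at 132 h, against 0, 0, 0 and 0 at 36 h, which are too few to read.

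The fall is one of relative expression, and its extent and direction depended on the scaling. The spike-in was added per amount of total RNA, so values scaled to it are per total RNA and not per larva. The authors report that total RNA per larva declined late in starvation. A rise on the spike-in scale is therefore not shown to be a rise per larva, and the change per larva was not tested. With counts scaled to the spike-in, the median of the 78 genes was 0.24 in the somatic TIR1 control, -0.03 in the germline TIR1 control, 0.56 in the somatic AID strain and 0.41 in the germline AID strain. The median of all genes was then 0.84 in the somatic TIR1 control, 0.46 in the germline TIR1 control, 0.85 in the somatic AID strain and 0.78 in the germline AID strain. Calls followed, with 0 of the 78 genes lower and 3 higher in the somatic TIR1 control, where 6.07% of all genes were lower and 35.4% higher. There were 1 lower and 2 higher in the germline TIR1 control (5.66% and 19.4% of all genes), 0 and 1 in the somatic AID strain (3.38% and 31.8%) and 0 and 2 in the germline AID strain (4.01% and 30%). With counts scaled to the library total and no W1, the median of the 78 genes was -0.26 in the somatic TIR1 control and -0.11 in the germline TIR1 control, but 0.04 in the somatic and 0.05 in the germline AID strain. On that scale 31 of the 78 were lower and 4 higher in the somatic TIR1 control (15.8% and 30.8% of all genes), 12 and 2 in the germline TIR1 control (10.7% and 31.6%), 1 and 2 in the somatic AID strain (10.4% and 25.1%) and 4 and 5 in the germline AID strain (11% and 28%). In the somatic TIR1 control the ribosomal protein genes lay below the median of all genes by 0.55 with the upper quartile and 0.60 with the spike-in. The gap was 0.55 and 0.49 in the germline TIR1 control, 0.23 and 0.29 in the somatic AID strain, and 0.28 and 0.37 in the germline AID strain. Scaling moves all genes of a library alike, so this gap stays nearly the same by construction and is no separate support for the fall.

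Most of the muscle markers fell over the same interval in the somatic strains, and other markers and strains are not given here. In the somatic TIR1 control 3 of 4 were lower and 1 was higher, with summed TPM of 457 to 674 at 132 h, against 2559 to 3131 at 36 h. In the somatic AID strain 3 of 4 were lower, with 764 to 1143 at 132 h, against 3100 to 4835 at 36 h. Their part in the fall of the ribosomal protein genes was not tested. Of all genes, 23.9% were lower and 20.5% higher in the somatic TIR1 control, and 15.1% and 15.2% in the somatic AID strain. Both strains carry ieSi57, which ends in the *unc-54* 3'UTR, and *unc-54* is 1 of these 4 markers. Reads of the transgene may thus be counted to *unc-54*, which was not examined.

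Whether the fall over late arrest differed between an AID strain and its control was tested with an interaction term that was added after the counts per strain were seen. It called 0 genes between the somatic strains (median 0.42, against 0.10 for all genes), where 1.56% of all genes were higher and 2.28% lower, although 43 of the 78 had an unadjusted p under 0.05 by edgeR and DESeq2 called 3. Between the germline strains it called 0 (median 0.30, against 0.02), as did DESeq2, where 0% of all genes were called, with 5 at an unadjusted p under 0.05 by edgeR. With the replicate number as a block, the change was higher in the somatic AID strain than in its control for 5 of the 78 (*rpl-20*, *rpl-9*, *rps-1*, *rps-2* and *rps-4*, 0.57 to 0.62, adjusted p from 0.0358 to 0.0483 by edgeR) and lower for 0, where 2.32% of all genes were higher and 2.74% lower. For the other 73 genes a difference between the somatic strains was not shown in either fit.

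With auxin, most of the block in the somatic AID strain was lower than in the same strain at 36 h. In this comparison 70 genes were lower and 1 higher (median -1.04, against 0.09 for all genes), where 24.2% of all genes were lower and 23.8% higher. In TPM, 58 of the 78 were lower in every auxin library than in any at 36 h, against 11.9% of all genes, and 3 were higher in every one, against 31.3%. It shares its 36 h libraries with the ethanol comparison of the same strain. *rps-2* had 2646, 2894, 2975 and 2939 TPM at 132 h with auxin, against 5020, 5960, 5177 and 5531 TPM at 36 h (-1.49, adjusted p = 4.67e-12 by edgeR). No library overlapped. *rpl-26* (-1.39, adjusted p = 5.14e-10) and *rpl-1* (-1.37, adjusted p = 3.25e-10), large subunit genes, were next.

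*rpl-11.1* was the single gene higher with auxin than at 36 h, by 2.54 ± 0.18 (log2, SE; adjusted p = 9.95e-16 by edgeR). It had 111.6, 107.4, 117.6 and 146.9 TPM at 36 h, and the libraries at 36 h, those with ethanol and those with auxin formed 3 groups without overlap, in rising order. *rpl-11.2* was lower than at 36 h (-1.18), as was *rpl-24.1* (-0.90). *rpl-24.2* had 1790, 1751, 1872 and 1408 TPM with auxin, against 1388, 1398, 1427 and 1278 TPM at 36 h, and was not called (-0.27, adjusted p = 0.156 by edgeR). *rps-27* (0.01), *rpl-12* (-0.14) and *rpl-35* (-0.31) were also not called.

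The strains were also compared before any treatment, where an AID strain and its control differ in the tag and in whatever else sets the lines apart. At 36 h, 0 of the 78 genes were called between the somatic AID strain and its TIR1 control (median -0.17, against 0.00 for all genes), where 0.167% of all genes were higher and 0.0579% lower, and 2 genes had an unadjusted p under 0.05 by edgeR. The exception in size was *rpl-38*, a short large subunit gene on chromosome V (15512166 to 15512737, plus strand, WBGene00004452). It had 4671, 4718, 5077 and 3798 TPM in the somatic AID strain at 36 h, against 2447, 2345, 2643 and 2754 TPM in the TIR1 control. The strains did not overlap, and the difference was 0.77 ± 0.18 (log2, SE; adjusted p = 0.0506 by edgeR), just outside the threshold. DESeq2 called this 1 gene, as did the fit with the replicate number as a block (0.75, adjusted p = 0.00827 by edgeR), in which 0.225% of all genes were higher and 0.0643% lower. The germline AID strain, which carries the same tag, had 2651, 2550, 2672 and 2849 TPM of *rpl-38* at 36 h, against 2489, 2294, 2513 and 2517 TPM in the germline TIR1 control, and was not called. Between the germline AID strain and its control 0 genes were called at 36 h (median -0.04), where 0.00643% of all genes were higher and 0% lower, with 0 at an unadjusted p under 0.05 by edgeR and 0 called by DESeq2.

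At 132 h with ethanol, a comparison added after the data were seen, 6 genes were higher in the somatic AID strain than in the TIR1 control and 0 lower (median 0.27, against 0.12 for all genes), where 6.63% of all genes were higher and 5.9% lower. *rpl-38* led with 4454, 3588, 4817 and 3725 TPM in the AID strain, against 2308, 2235, 2816 and 2241 TPM in the control (0.94 ± 0.18, log2, SE; adjusted p = 3.64e-04 by edgeR). It had 3106 to 5077 TPM over the 12 libraries of the somatic AID strain and 1001 to 2916 TPM over the 36 libraries of the other 3 strains. The other 5 genes were *rpl-20* (0.48, adjusted p = 0.0348), *rps-4* (0.47, adjusted p = 0.0253), *rps-2* (0.44, adjusted p = 0.0246), *rpl-9* (0.43, adjusted p = 0.0349) and *rps-6* (0.42, adjusted p = 0.0428), by edgeR. With spike-in scaling 0 of the 78 were called, where 0.154% of all genes were higher and 0.225% lower. With the replicate number as a block, 12 of the 78 were higher and 0 lower, where 7.41% of all genes were higher and 6.4% lower. Between the germline strains 0 were called at that time (median 0.25, against 0.01), also by DESeq2, where 0.00643% of all genes were higher and 0% lower, with 21 at an unadjusted p under 0.05 by edgeR.

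Genes that work with these proteins were followed through lists of known translation genes, each set beside its size. With auxin in the somatic AID strain, 16.1% of all genes tested were lower and 13.3% higher. With auxin in the somatic AID strain, ribosomal proteins with other names behaved like the block, with 5 of 6 lower and 0 higher (median -1.01). They were *rla-0* (-1.16) and *rla-1* (-0.97), which encode stalk proteins, *rack-1* (-1.06), a scaffold of the small subunit, *ubl-1* (-1.11) and *ubq-2* (-0.62). *ubl-1* encodes a ribosomal protein fused to a ubiquitin-like protein, and *ubq-2* one fused to ubiquitin. *rla-2* had -0.52 and was not called. Of 8 elongation factors 6 were lower (median -0.88), among them *eef-1G* (-1.36), *eef-1A.2* (-1.26) and *eef-1B.1* (-1.12), which belong to the complex that brings aminoacyl-tRNA to the ribosome.

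Lists further from the ribosome itself were mixed, and their counts are to be read against 16.1% of all genes lower and 13.3% higher. The counts of the ribosome assembly list were near these shares. Of 24 initiation factors 9 were lower and 3 higher (median -0.28), with *eif-6* (-1.43), *inf-1* (-1.20) and *eif-2alpha* (-1.08) lowest and *eif-2A* (0.66), *eif-1* (0.60) and *eif-2gamma* (0.52) highest of those called. Of 21 ribosome assembly and nucleolar factors 4 were higher and 3 lower (median 0.25), with *utp-20* (1.28) and *pro-2* (1.19) higher and the box C/D snoRNP genes *nol-56* (-1.68), *nol-58* (-1.12) and *fib-1* (-0.98) lower. Of 4 RNA polymerase I subunits 0 were called (median -0.18). Mitochondrial ribosomal proteins did not follow the cytosolic ones, with 14 of 70 higher and 2 lower (median 0.19), *mrps-7* (2.56) the highest and *mrpl-41* (-2.17) the lowest of those called. Of 12 genes of the TOR pathway and regulators of ribosome synthesis 4 were higher and 1 lower (median 0.39), namely *nprl-3* (2.04), *let-363* (1.96), which encodes the TOR kinase, *daf-15* (1.28), the worm Raptor, and *ncl-1* (0.84), against *rict-1* (-0.95), the worm Rictor. In the other 3 strains auxin changed 0 genes of each of these lists, where 0% of all genes were called.

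**Figure D5:**
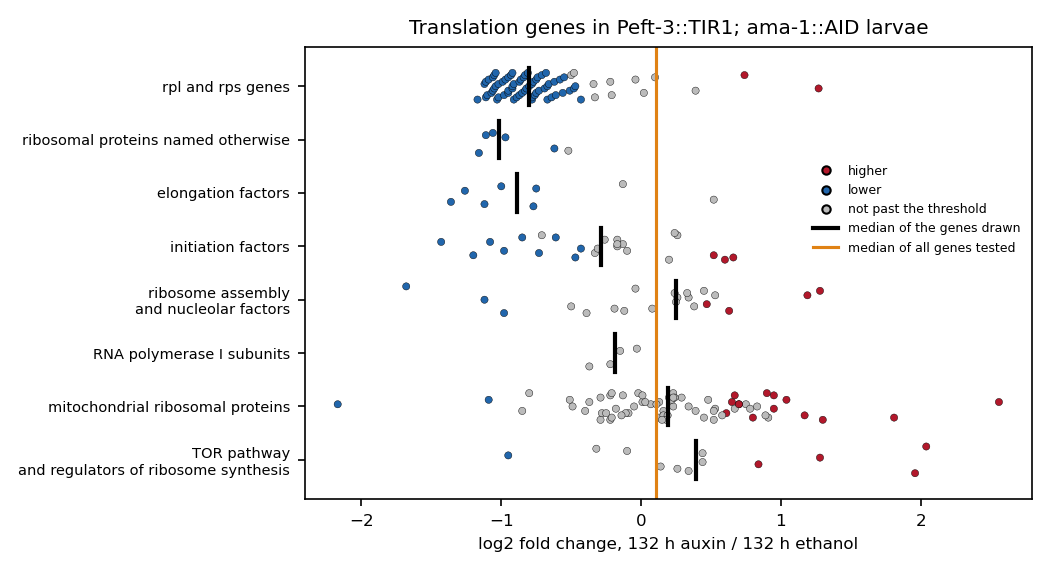
Log2 fold change (x axis) of each gene, 1 point per gene, in 132 h auxin against 132 h ethanol of the somatic AID strain, for the *rpl-* and *rps-* genes and the lists of translation genes, with the median of each list marked. *rpl-41.2* and *rpl-42* are left out. Ribosomal proteins with other names (median -1.01) and elongation factors (-0.88) lie with the block (-0.79), mitochondrial ribosomal proteins (0.19) do not.

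Over late arrest with ethanol the order of the lists was another one. Of all genes tested, 15.1% were lower and 15.2% higher in the somatic AID strain, and 17.1% and 17% in the germline AID strain. The shares were 23.9% and 20.5% in the somatic TIR1 control, and 19.4% and 18.8% in the germline TIR1 control. Mitochondrial ribosomal proteins were mostly lower where they were called, with 25 lower and 2 higher in the somatic AID strain, 26 and 3 in the germline AID strain, 24 and 6 in the somatic TIR1 control and 27 and 4 in the germline TIR1 control, out of 70. Of the 6 ribosomal proteins with other names, 5 were lower in each TIR1 control, 0 in the somatic and 1 in the germline AID strain, and the interaction between the somatic strains called 0 of them. Elongation factors were split, with 5 of 8 lower and 2 higher in the somatic TIR1 control, where *eef-1A.2* was higher (1.69). Initiation factors were split as well, with 8 of 24 lower and 11 higher there, where *inf-1* (4.09) was highest and *eif-3.E* (-1.39) lowest.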

How the data were processed

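The authors isolated total RNA from whole starved L1 larvae with TRIzol, added ERCC spike-in RNA by amount of total RNA and sequenced poly(A)-selected libraries as paired reads. They aligned reads with Bowtie 1.2.2, which does not split reads across introns, and made the gene counts with HTSeq 0.11.2. Whether strand was used is not given in the sources used here. PCR cycle number differed by batch, and the labels do not give the batch of a library. The deposited values are raw counts per gene.

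The 15549 protein-coding genes in which 4 or more libraries exceeded 10 counts were fitted in 1 model of 12 groups and 48 libraries with edgeR 4.0.16 in R 4.3.3, with upper-quartile normalization, a factor W1 estimated from 62 spike-ins by the RUVg formula, and the quasi-likelihood test (the study's methods use the likelihood ratio test, tried as an alternative with DESeq2 1.42.0, other scalings and filters, and left-out replicates). P-values were adjusted by Benjamini-Hochberg over all genes tested, with a threshold of 0.05. TPM was computed from the counts and summed exon lengths. The fit was tested on simulated data. No replicate pair agreed within sampling noise (chi-squared per degree of freedom 7.27 to 92.5 over 72 pairs). Per the study's methods, plates of all 4 strains were bleached in parallel and the embryos of each strain split into flasks. The replicate number was therefore taken to mark a shared bleach. Deviations from the group means correlated at 0.0479 on average within a number and -0.0159 between numbers, and in 6 of 16 auxin-ethanol pairs above 0.1. The study's methods have no block, and blocked values are given where they differ. Members and lists were chosen with earlier results of these data known. Named were the 5 most abundant genes, those under 10% of the median TPM, genes sharing a number, the 3 highest and 3 lowest per comparison, genes more than 3 scaled median absolute deviations from the median, *rps-6*, *rps-0* and *rpl-3*, and up to 3 highest and lowest per list. Of the list names, 6 did not match the annotation.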

Additional observations from a re-analysis of the deposited data

Results flagged for a closer look

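In 10 of 156 groups of 4 libraries 1 library lay far from the other 3, by Dixon's gap ratio, where chance gives about 1 in 20. The share of protein-coding counts held by the ribosomal protein genes was 15.9% in replicate 3 of the somatic AID strain at 36 h (13.7% to 13.9% in the others), and 11.99% in replicate 4 of the germline AID strain with auxin (14.8% to 15.1%). *rpl-38* had 2816 TPM in replicate 3 of the somatic TIR1 control with ethanol (2235 to 2308 in the others) and 2294 TPM in replicate 2 of the germline TIR1 control at 36 h (2489 to 2517). In the germline TIR1 control at 36 h, *rps-6* had 5797 TPM in replicate 3 (6430 to 6495) and *rps-27* had 966.0 TPM in replicate 1 (815.9 to 837.3). *rpl-11.1* had 496.9 TPM in replicate 2 of the germline TIR1 control with auxin (272.2 to 306.3). In the germline TIR1 control with ethanol, *rpl-11.2* had 4343 TPM in replicate 4 (5074 to 5190), *rpl-43* had 11170 TPM in replicate 3 (9018 to 9345) and *rpl-41.1* had 77.7 TPM in replicate 4 (22.4 to 28.9).

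The effect of auxin differed between the somatic AID strain and the somatic TIR1 control for 51 of the 78 genes by the interaction term. Of these, 49 were lower and 2 higher in the AID strain, where 12.5% of all genes were lower and 8.31% higher.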

How the results depend on the processing

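Alternatives covered scaling, the W1 factor, filters, the test, the libraries fitted, the threshold and left-out replicates. Counts in this section add both directions. Shares of all genes are given above for the main fit and for some alternatives only. The other counts have no such share beside them and do not show how the block compares with all genes. For auxin against ethanol in the somatic AID strain, 66 genes were called, 48 to 69 with a replicate left out, but 1 in a fit of only the libraries compared with W1. The share held by these genes changed by -0.68 (log2), and by -2.12 per spike-in count.

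Over late arrest with ethanol, the somatic AID strain had 11 genes called, against 19 without W1, 1 by spike-in scaling and 3 by total counts (both with a turned majority), 2 with only the libraries compared, 4 without ethanol replicate 4 of the germline TIR1 control, 2 at a threshold of 0.01 and 2 to 16 with a replicate left out. The germline AID strain had 19, against 29 without W1, 2 by spike-in scaling and 9 by total counts (both turned), 2 with only the libraries compared and 31 with these and no W1, 11 without that library, 9 at 0.01 and 8 to 25 with a replicate left out. The somatic TIR1 control had 71, against 3 by spike-in scaling (turned, median 0.24 in place of -0.66), 35 by total counts and 32 with only the libraries compared. The germline TIR1 control had 71, against 3 by spike-in scaling (turned), 14 by total counts, 38 without that library and 25 to 73 with a replicate left out.

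The interaction of auxin between the somatic strains called 51, against 4 with only the libraries compared and 20 to 57 with a replicate left out. The tag at 36 h called 0 between these strains, against 1 by total counts, the likelihood ratio test, DESeq2, the stricter filter and only the libraries compared, with or without W1, and 0 to 1 with a library left out. The late-arrest interaction called 0, against 1 by the likelihood ratio test, 3 by DESeq2, 3 by the stricter filter, 1 with only the libraries compared, 3 without ethanol replicate 4 of the germline TIR1 control, 2 without auxin replicate 4 of the somatic AID strain and 0 to 6 with a replicate left out. The tag at 132 h with ethanol called 6, against 3 by TMM, 0 by spike-in scaling, 2 with no filter, 13 by the stricter filter, 23 with only the libraries compared and 1 with these and no W1, 11 without auxin replicate 4, 1 at 0.01 and 1 to 15 with a replicate left out.

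By spike-in scaling single genes also turned, namely *rpl-24.2* with auxin (-0.35) and in its interaction (-0.08), and over late arrest *rpl-26* (0.23) and *rpl-31* (0.18) in the somatic AID strain and *rpl-1* (0.03) and *rpl-26* (0.01) in the germline AID strain. Apart from the scalings, whose own construction moves the median of all genes, the cause of these changes was not tested.

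With the replicate number as a block, 69 genes were called with auxin in the somatic AID strain, 1 for the tag at 36 h, 5 for the late-arrest interaction and 12 for the tag at 132 h, against 66, 0, 0 and 6 without the block. In the other comparisons the block moved no count by over 1.5 times. Genes under about 10 counts, *rpl-41.2* and *rpl-42*, could not be measured at this depth.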
